A study of Caenorhabditis elegans with 18 samples.

Results

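Transcripts of autophagy genes were followed in whole Caenorhabditis elegans adults of 3 strains, with and without a heat shock. The genes were the 10 named lgg-1, lgg-2, sqst-1, bec-1, unc-51, epg-5, atg-9, atg-18, atg-16.2 and atg-7, taken as the table rows whose RefSeq transcript belongs to each gene, with the transcript of highest mean count where a gene had several. Rows were found for 9 of the 10, of 39798 genes with a row in all. No row matched epg-5, a gene needed for autophagosomes to mature by fusion, and it is not analysed here. The 9 genes passed the filter on low counts and were among the 14286 genes tested.

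Autophagy encloses cytoplasm in a double membrane, the autophagosome, and delivers it to lysosomes for breakdown. A kinase complex starts the process, a lipid kinase complex marks the membrane, lipid transfer and scaffold proteins let it grow, and a ubiquitin-like conjugation system attaches LGG-1 and LGG-2 to it. Receptors such as SQST-1 bring cargo to these membrane proteins, and fusion with the lysosome ends the process. In C. elegans, autophagy genes are known to be needed for several forms of long life and for the survival benefit that a mild heat shock gives.

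The strains were RB711, which carries the pqm-1 allele ok485, CF1038, which carries the daf-16 allele mu86, and N2 Bristol, the laboratory wild type. Both mutated genes encode transcription factors of stress and metabolic genes, PQM-1 a zinc finger protein and DAF-16 the FOXO factor below insulin signalling. Day 1 adults were heated at 35 °C for 1 h in a water bath and left for 2 h at 20 °C, or were at 20 °C. Each mutant is 1 strain with 1 allele, RNA came from whole animals grown in bulk from larvae hatched together, and all groups were fed E. coli OP50-1. Replicates are numbered 1 to 3 in all 6 groups, without a word on whether they came from separate cultures, so the p-values measure the spread between these samples, which may be technical.

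Comparisons used the 12 libraries labelled replicate 2 and 3, which had 18650462 to 33399558 gene-level counts. One column named after a daf-16 library at 20 °C (replicate 1) does not hold counts but transcript lengths, equal to the annotated coding length in 11837 of 12286 genes with a single transcript (96.3%, against at most 0.0326% in a count column), so the header names may stand displaced by 1 column and the libraries labelled replicate 1 may belong to another group. In these libraries hsp-16.2, a chaperone gene induced by heat, went against the labels. It stood at 208.7 and 324.3 CPM (counts scaled to a fixed library total) in the libraries labelled N2 and pqm-1 20 °C replicate 1, against at most 0.417 CPM in the 3 labelled as heated. In the 12 libraries used, hsp-16.2 was at 263.4 to 564.4 CPM after heat and at 0.0461 to 0.42 CPM at 20 °C. If the names are displaced by 1 column, the columns named replicate 2 and 3 hold replicates 1 and 2 of the same group. Those named replicate 1 then hold replicate 3 of the group before, heated where the label says 20 °C and the reverse. Libraries are named here by their header. The pqm-1 transcript stood at 12.5 and 9.96 CPM in the pqm-1 strain at 20 °C, against 26.1 and 24.1 CPM in N2 (log2 fold change -1.16, adjusted p 0.0585), and the daf-16 transcript row stood at 115.0 and 97.7 CPM in the daf-16 strain against 105.5 and 88.0 CPM in N2 (0.14, adjusted p 0.509). Neither difference passed, and daf-16 was not lower at 20 °C in the strain that carries its mutation (heated animals gave -0.19 on the log2 scale, with an adjusted p of 0.378). Which bases of the row are deleted was not analysed, so the daf-16 value does not check the label, and the strain is named here by its label alone.

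Levels per length placed lgg-1 far above the other autophagy genes. Mean scaled CPM per kilobase of coding sequence, a rough measure for genes of unlike length, were 529.5 for lgg-1, 95.5 for lgg-2, 68.8 for atg-18, 29.0 for sqst-1, 20.5 for bec-1, 17.8 for atg-7, 16.5 for unc-51, 14.8 for atg-9 and 5.22 for atg-16.2 in N2 at 20 °C (n = 2). Neighbours in this order did not overlap between libraries, except unc-51 (16.15 to 16.83) and atg-9 (13.2 to 16.4). After heat in N2, sqst-1 reached 122.7 and stood beside lgg-2 at 123.1, and their libraries overlapped (98.3 to 147.1 for sqst-1 and 110.6 to 135.5 for lgg-2). In the heated daf-16 strain the level per kilobase was 183.3 for sqst-1 (134.8 and 231.8) and 134.6 for lgg-2 (123.2 and 145.9), and in the heated pqm-1 strain 124.2 for sqst-1 (122.3 and 126.2) and 111.6 for lgg-2 (107.9 and 115.2). In each strain lgg-1 stayed the highest of the 9 genes per length. How reads were counted is not given, so the counts may hold reads outside the coding sequence, which this length leaves out.

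**Figure D1:**
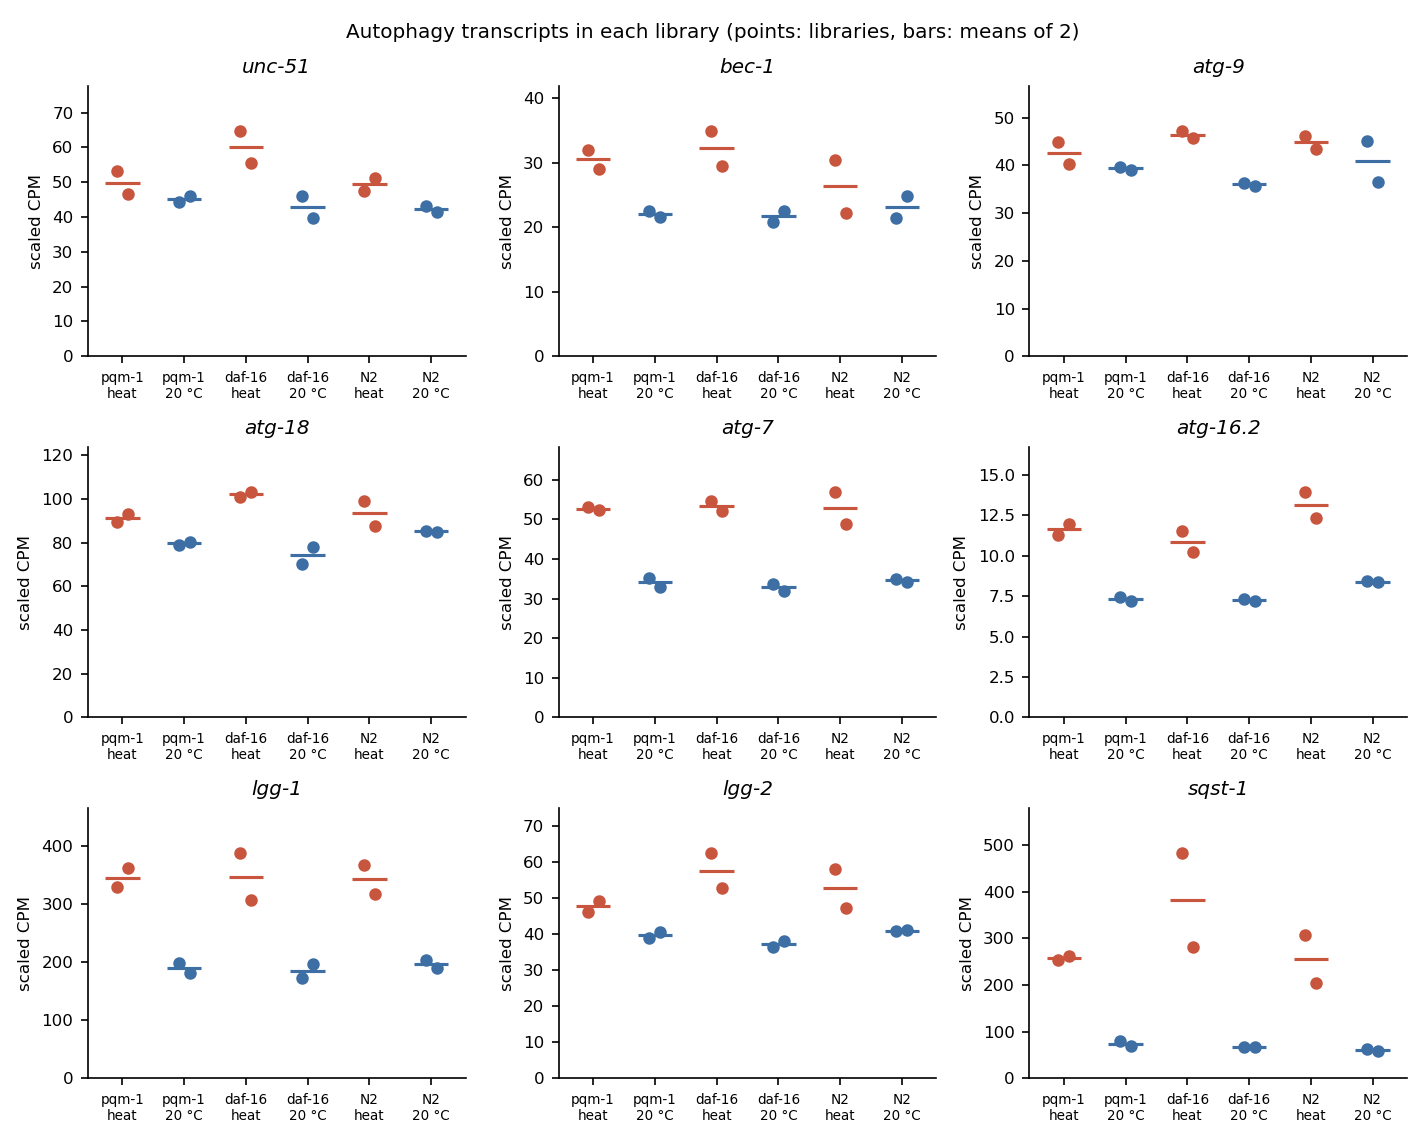
Scaled CPM (y axis, from 0) of 9 autophagy genes in each of 12 libraries, by strain and temperature (x axis), with points for libraries and bars for means of 2. Heated libraries (red) lie above the 20 °C libraries (blue) of the same strain for every gene except bec-1 and atg-9 in N2, where they overlap, and the gap is widest for sqst-1, at 204.5 to 482.7 after heat.

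After heat, sqst-1, lgg-1, atg-7 and atg-16.2 rose in each strain, and the fold change was highest for the cargo receptor sqst-1. Counts were compared with edgeR's quasi-likelihood test, and genes whose p, adjusted over all genes tested by Benjamini and Hochberg, was below 0.05 were called. After heat, 5 of 9 genes were called higher in the pqm-1 strain, 9 of 9 in the daf-16 strain and 5 of 9 in N2, and none was called lower. Of all genes tested, 12.5% were called higher in the pqm-1 strain, 16.5% in the daf-16 strain and 16.9% in N2, and 12.6%, 16.5% and 17.8% were called lower in pqm-1, daf-16 and N2. The median log2 fold change of the 9 genes was 0.47, 0.58 and 0.36 in pqm-1, daf-16 and N2, beside 0.0097, 0.032 and 0.017 over all genes. For the heat effect averaged over the strains, 9 of 9 genes were called higher, where 27.4% of all genes were, with log2 fold changes between 0.20 and 2.13. Without any 1 library the number called was 4 or 5 in pqm-1, 7 to 9 in daf-16, 4 to 6 in N2 and 9 for the average.

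**Figure D2:**
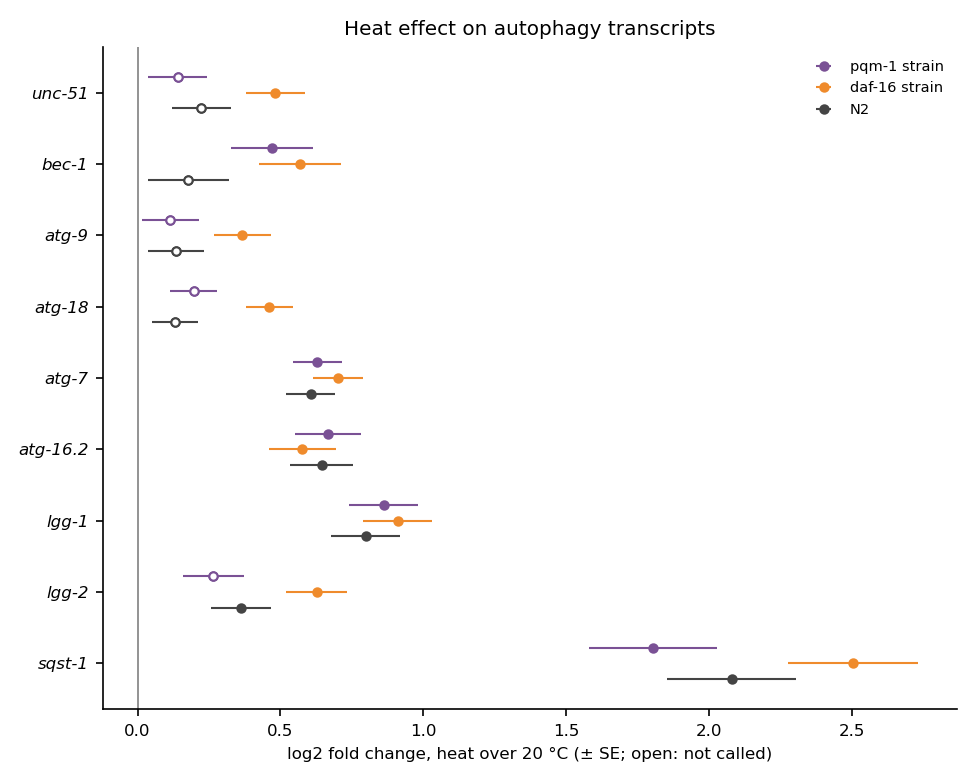
Log2 fold change of heat over 20 °C with its SE (x axis) for 9 autophagy genes (rows) in the pqm-1 strain, the daf-16 strain and N2, with open points for values that were not called. Every value lies above 0, and those of sqst-1 (1.80 to 2.50) lie apart from the rest.

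The receptor sqst-1 encodes the worm p62 protein, which binds ubiquitin-marked cargo and is itself degraded by autophagy. Its level was 254.6 and 262.7 CPM in the heated pqm-1 libraries and 79.4 and 68.7 CPM at 20 °C. In the daf-16 strain it was 482.7 and 280.6 CPM after heat and 66.3 and 68.2 CPM at 20 °C, and in N2 306.3 and 204.5 CPM after heat and 62.8 and 58.0 CPM at 20 °C. Heated and unheated libraries did not overlap in any strain. The rise was 3.49-fold in pqm-1 (log2 1.80 ± 0.22, SE, adjusted p 0.000131), 5.67-fold in daf-16 (2.50 ± 0.23, adjusted p 1.05e-05) and 4.23-fold in N2 (2.08 ± 0.23, adjusted p 4.77e-05). The heated replicates differed widely in the daf-16 strain and N2 and little in pqm-1, and hsp-16.2 stood in the same order in the same libraries, at 577.1 and 327.5 CPM in daf-16, 461.8 and 257.3 CPM in N2 and 387.3 and 415.0 CPM in pqm-1. What these levels share was not tested. The gene has 2 transcript rows, whose counts repeat mostly the same reads, and the shorter held 95.0 to 96.3% of the counts of the longer in every library. Its counts were not whole in 2 libraries.

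The conjugation genes included 3 further genes called in each strain. The gene lgg-1 encodes a GABARAP-type homologue of yeast Atg8, the protein that is joined to the autophagosome membrane. It stood at 328.8 and 361.6 CPM in heated pqm-1 animals against 198.2 and 181.7 CPM at 20 °C, at 387.9 and 306.2 against 172.3 and 196.8 CPM in daf-16, and at 368.0 and 317.3 against 204.4 and 189.6 CPM in N2. Each heated library lay above each 20 °C library, and the folds were close together, at 1.82, 1.88 and 1.74 in pqm-1, daf-16 and N2 (log2 0.86 ± 0.12, 0.91 ± 0.12 and 0.80 ± 0.12, SE, edgeR adjusted p 3.00e-04, 0.00014 and 0.000414).

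The LC3-type homologue lgg-2 had smaller fold changes. Its level was 46.3 and 49.4 CPM in heated pqm-1 animals against 39.03 and 40.64 CPM at 20 °C, 62.6 and 52.9 against 36.4 and 38.3 CPM in daf-16, and 58.1 and 47.5 against 40.9 and 41.1 CPM in N2. The groups did not overlap in any strain. It rose in daf-16 (log2 0.63 ± 0.11, SE, edgeR adjusted p 0.000871) and N2 (0.36 ± 0.11, adjusted p 0.0192), while the value in pqm-1 was 0.26 ± 0.11 (adjusted p 0.0911). The N2 call was lost without N2 20 °C replicate 2 (adjusted p 0.0633), without N2 20 °C replicate 3 (0.0697) and without N2 heat replicate 2 (0.164). The shorter of its 2 transcript rows held 61.7 to 66.5% of the counts of the longer across the 12 libraries, with overlapping ranges before and after heat in each strain.

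The gene atg-7 encodes the E1-like enzyme that activates the ubiquitin-like proteins of the pathway. It was at 53.1 and 52.4 CPM in heated pqm-1 animals against 35.3 and 32.9 CPM at 20 °C, at 54.8 and 52.1 against 33.8 and 31.9 CPM in daf-16, and at 56.9 and 48.8 against 35.0 and 34.3 CPM in N2. The heated libraries stood clear of the others, and the log2 fold changes of 0.63 ± 0.09, 0.70 ± 0.09 and 0.61 ± 0.09 (SE, edgeR adjusted p 0.000276, 9.11e-05 and 0.000293 in pqm-1, daf-16 and N2) were each past the threshold. In 3 of the 12 libraries its count was not whole.

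The gene atg-16.2 encodes a homologue of ATG16L1, which forms a complex with ATG-5 and LGG-3 that directs conjugation to the membrane. It was the lowest of the 9 genes per length, and its level was 11.3 and 12.0 CPM in heated pqm-1 animals against 7.44 and 7.20 CPM at 20 °C, 11.5 and 10.2 against 7.33 and 7.19 CPM in daf-16, and 13.9 and 12.3 against 8.43 and 8.35 CPM in N2. No heated library overlapped with one at 20 °C. The log2 fold changes were 0.67 ± 0.11, 0.58 ± 0.12 and 0.64 ± 0.11 in pqm-1, daf-16 and N2 (SE, edgeR adjusted p 0.00121, 0.00253 and 0.000959).

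Of the genes that act earlier in the pathway, 3 (unc-51, atg-9 and atg-18) were called in the daf-16 strain and not in the other strains. The kinase gene unc-51, the worm ULK1 and yeast Atg1 homologue, stood at 53.1 and 46.5 CPM in heated pqm-1 animals against 44.4 and 46.1 CPM at 20 °C, 64.7 and 55.4 against 46.2 and 39.7 CPM in daf-16, and 47.5 and 51.3 against 43.3 and 41.5 CPM in N2. It rose in daf-16 (log2 0.48 ± 0.10, SE, edgeR adjusted p 0.00379), and the values in pqm-1 (0.14, adjusted p 0.365) and N2 (0.22, adjusted p 0.115) did not pass. Without daf-16 20 °C replicate 3 the daf-16 value for unc-51 was 0.38 (adjusted p 0.0505). Its counts were not whole in 3 libraries.

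The gene bec-1 encodes the worm Beclin 1, a subunit of the lipid kinase complex that starts the membrane. It was at 31.9 and 29.0 CPM in heated pqm-1 animals against 22.5 and 21.5 CPM at 20 °C, 34.9 and 29.5 against 20.8 and 22.6 CPM in daf-16, and 30.5 and 22.2 against 21.4 and 24.9 CPM in N2. Only the N2 groups overlapped. It rose in the pqm-1 strain (log2 0.47 ± 0.14, SE, edgeR adjusted p 0.0305) and the daf-16 strain (0.57 ± 0.14, adjusted p 0.0094), and the N2 value of 0.18 did not pass (adjusted p 0.356). Leaving out pqm-1 20 °C replicate 2 or 3 or pqm-1 heat replicate 2 or 3 ended the pqm-1 call of bec-1 (adjusted p 0.099, 0.153, 0.179 and 0.0672). Leaving out daf-16 20 °C replicate 2 (0.0676) or daf-16 heat replicate 2 (0.0703) ended the daf-16 call. In N2, bec-1 was called higher without heat replicate 3 (0.39, adjusted p 0.044) and stood at -0.046 without heat replicate 2. The annotation places a noncoding RNA gene, T19E7.24, across 223 bases of bec-1 on the opposite strand, and the table gives no strand, so reads of both cannot be told apart.

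The gene atg-9 encodes the transmembrane lipid scramblase of the growing membrane. It stood at 45.0 and 40.2 CPM in heated pqm-1 animals against 39.7 and 39.1 CPM at 20 °C, 47.2 and 45.7 against 36.4 and 35.7 CPM in daf-16, and 46.2 and 43.5 against 45.2 and 36.6 CPM in N2, where the groups overlapped. It rose in daf-16 (log2 0.37 ± 0.10, SE, edgeR adjusted p 0.0143), and the values in pqm-1 (0.11) and N2 (0.13) did not pass. The daf-16 call of atg-9 was lost without 20 °C replicate 2 (adjusted p 0.0575), 20 °C replicate 3 (0.0829) or heat replicate 2 (0.0625). In N2, atg-9 was called higher without 20 °C replicate 2 (0.30, adjusted p 0.0433) and stood at -0.013 without 20 °C replicate 3.

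The gene atg-18 encodes a WIPI-type protein that binds the lipid made by the BEC-1 complex. It was at 89.6 and 93.2 CPM in heated pqm-1 animals against 79.2 and 80.5 CPM at 20 °C, 101.1 and 103.2 against 70.2 and 78.2 CPM in daf-16, and 99.3 and 87.6 against 85.5 and 85.0 CPM in N2. Heated libraries were above the others in each strain. It rose in daf-16 (log2 0.46 ± 0.08, SE, edgeR adjusted p 0.00116), while the values in pqm-1 (0.20, adjusted p 0.103) and N2 (0.13, adjusted p 0.235) did not pass.

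Counts of groups that do not overlap say less than the tests. Heated libraries stood above all 20 °C libraries of their strain for 9 of the 9 genes in pqm-1, 9 in daf-16 and 7 in N2, and 34.7%, 34.9% and 33.9% of all genes tested did so in pqm-1, daf-16 and N2.

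The difference in heat response between strains was tested directly and no autophagy gene passed. Of all genes tested, 0% were called for either difference, with 1112 genes at an unadjusted p under 0.05 for pqm-1 minus N2 and 2128 for daf-16 minus N2, while DESeq2 called 8 and 62 genes. Among the 9 genes the difference ranged from -0.28 to 0.29 for pqm-1 minus N2 (SE 0.12 to 0.31). For daf-16 minus N2 it ranged from -0.07 to 0.42 (SE 0.12 to 0.31). There 8 of 9 values were above 0, beside 51.5% of all genes, and the 9 values come from the same libraries, so they are not independent. The value with the lowest p was that of atg-18 for daf-16 minus N2, at 0.33 ± 0.12 (unadjusted p 0.0147, edgeR adjusted p 0.255). Being called in the daf-16 strain and not in N2 is therefore not shown to be a difference between these strains. Both differences share the N2 libraries.

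Between each mutant and N2, no autophagy gene passed the threshold at either temperature. At 20 °C, 0 of 9 genes were called in pqm-1 against N2, where 0.0630% of all genes were, and their log2 fold changes lay between -0.20 and 0.29 (SE 0.08 to 0.22). After heat 0 of 9 were called in pqm-1 against N2, beside 0.245% of all genes, with values between -0.17 and 0.22. In daf-16 against N2, 0 of 9 were called at 20 °C, beside 2.52% of all genes, with values between -0.21 and 0.15, and 0 of 9 after heat, beside 1.10%, with values between -0.27 and 0.58. Before adjustment, p was below 0.05 for 0, 0, 1 and 3 of the 9 genes in these comparisons, in the order given, beside 9.67%, 6.47%, 19.7% and 16.9% of all genes. DESeq2 called 0 of the 9 in each. These comparisons share N2 libraries in pairs, and a value that misses the threshold does not show that the strains had equal levels.

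**Figure D3:**
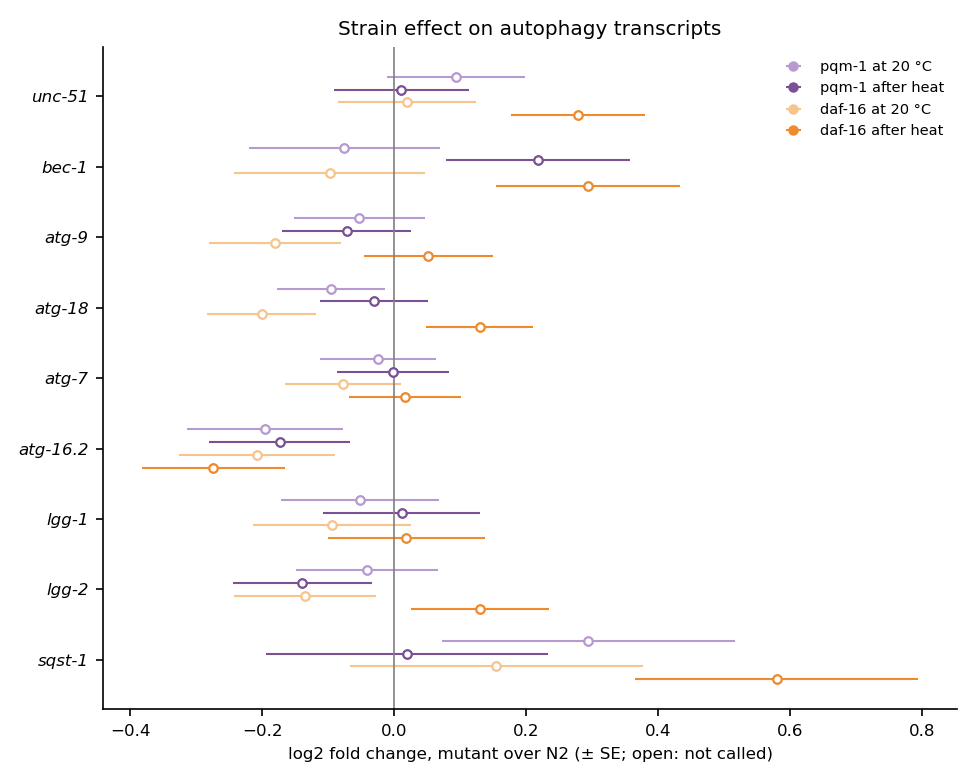
Log2 fold change of each mutant over N2 with its SE (x axis) for 9 autophagy genes (rows), at 20 °C and after heat. All points are open because no value was called, and the value farthest from 0 is that of sqst-1 in daf-16 after heat, at 0.58.

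The values at an unadjusted p under 0.05 were atg-18 at 20 °C and sqst-1, unc-51 and atg-16.2 after heat, all in daf-16 against N2. The scaffold gene atg-18 was lower in daf-16 at 20 °C in each library (70.2 and 78.2 CPM against 85.5 and 85.0 CPM in N2), with a log2 fold change of -0.20 ± 0.08 (edgeR adjusted p 0.206). After heat, sqst-1 had 482.7 and 280.6 CPM in daf-16 against 306.3 and 204.5 CPM in N2, groups that overlapped, with 0.58 ± 0.21 (edgeR adjusted p 0.204). Without daf-16 heat replicate 3, in which sqst-1 was the lower of the pair, it was called (0.92, adjusted p 0.0181, with the remaining heated daf-16 library assumed to vary like the other groups), and without a filter on low counts it was also called (0.55, adjusted p 2.77e-06). Without that filter 1095 of all genes were called in this comparison, against 157 with it, so the added call was not particular to sqst-1. The kinase gene unc-51 stood at 0.28 ± 0.10 (adjusted p 0.2) and atg-16.2 at -0.27 ± 0.11 (adjusted p 0.231), with 11.5 and 10.2 CPM of atg-16.2 in daf-16 and 13.9 and 12.3 CPM in N2.

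Beyond the 9 genes, a list of 37 other genes of autophagy was read in the same fit, and 32 of them had a row and were tested. The list was chosen with earlier results of these data known. After heat, 14 rose and 2 fell in the pqm-1 strain, 18 rose and 1 fell in daf-16, and 12 rose and 1 fell in N2, leaving 16, 13 and 19 that did not pass. Of all genes tested, 12.5%, 16.5% and 16.9% were called higher and 12.6%, 16.5% and 17.8% lower in pqm-1, daf-16 and N2. Over the 32 genes the median log2 fold change was 0.29, 0.44 and 0.28 in pqm-1, daf-16 and N2, beside 0.0097, 0.032 and 0.017 over all genes. For the heat effect averaged over strains 23 rose and 1 fell, where 27.4% of all genes were called higher and 26.3% lower. Called in all 3 strains were 9 genes, 8 higher and 1 lower, and the other gene that fell in pqm-1 was epg-3, at -0.32 (edgeR adjusted p 0.0496). Without 1 library the total called ranged from 5 to 17 in pqm-1, where leaving out 20 °C replicate 2, 20 °C replicate 3, heat replicate 2 or heat replicate 3 gave 6, 5, 7 and 7. In N2 it ranged from 6 to 16, with 6 without 20 °C replicate 3 and 7 without heat replicate 2. No gene of the list was called between a mutant and N2 or for a difference in heat response.

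**Figure D4:**
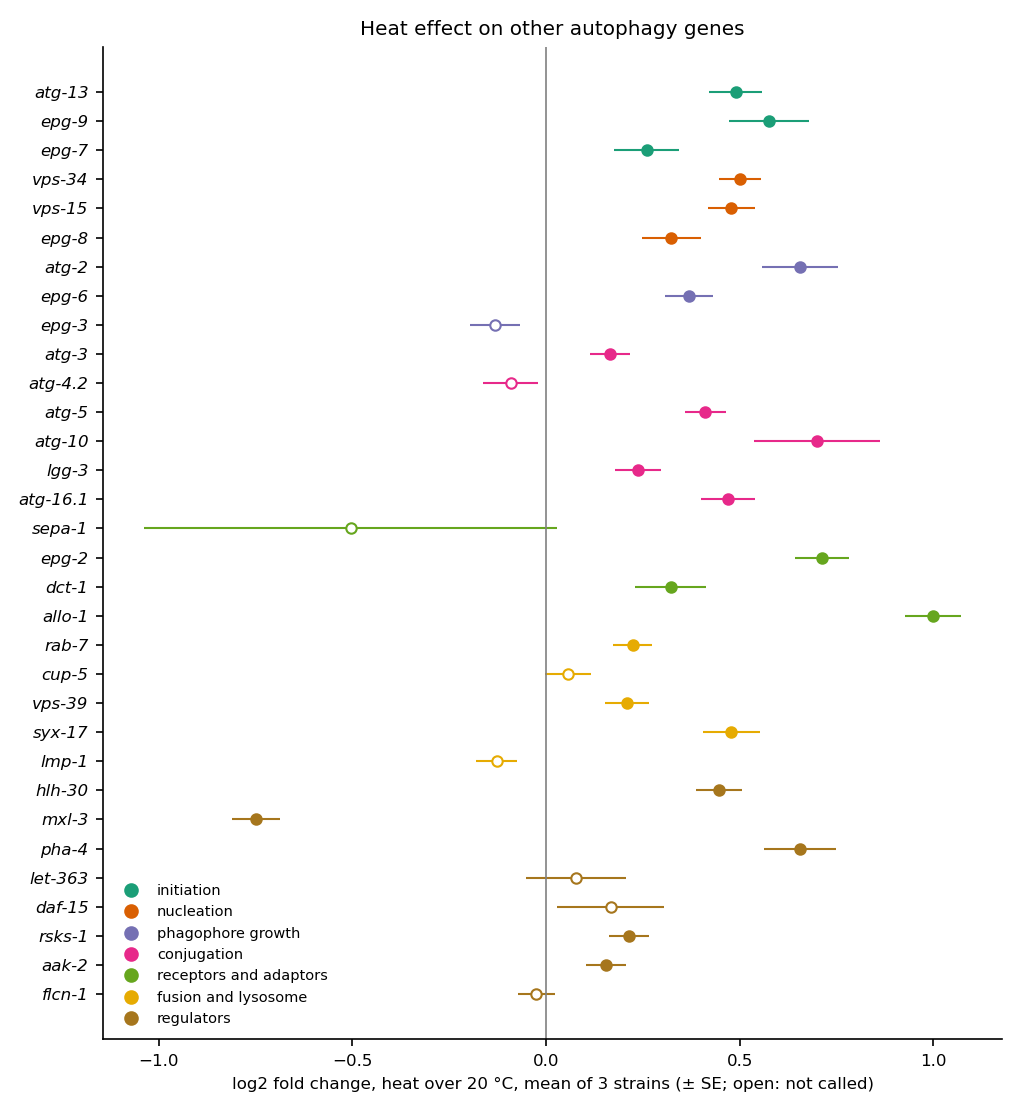
Log2 fold change of heat over 20 °C averaged over 3 strains, with its SE (x axis), for 32 other autophagy genes (rows) coloured by step of the pathway, with open points for values that were not called. The values reach from -0.75 for mxl-3 to 1.00 for allo-1.

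For the averaged effect the largest rise was again that of a cargo adaptor. In the pqm-1 strain taken alone the highest value was that of atg-10, an E2-like enzyme of conjugation, at 0.98 ± 0.30 (SE, edgeR adjusted p 0.0336). Its level there was 1.24 and 1.38 CPM after heat against 0.616 and 0.701 CPM at 20 °C. The gene allo-1, an adaptor in the removal of paternal mitochondria, stood at 149.6 and 160.7 CPM in heated pqm-1 animals against 82.8 and 74.9 CPM at 20 °C, 173.6 and 145.0 against 65.4 and 71.2 CPM in daf-16, and 160.2 and 130.8 against 91.5 and 75.8 CPM in N2. It rose by 0.98, 1.22 and 0.80 on the log2 scale (edgeR adjusted p 0.000176, 2.52e-05 and 0.000561). The gene epg-2, a scaffold for the removal of germline granule proteins, rose by 0.71, 0.85 and 0.58 in pqm-1, daf-16 and N2 (adjusted p 0.00122, 0.000226 and 0.00295). The related adaptor sepa-1 was near 1 CPM, from 0.25 to 4.11 CPM over the libraries, and did not pass in any strain. In the lipid kinase complex, vps-34, the catalytic subunit, rose by 0.50, 0.53 and 0.48 (adjusted p 0.00229, 0.00111 and 0.00212), and in the initiation complex atg-13 rose by 0.54 in the pqm-1 and 0.67 in the daf-16 strain and stood at 0.25 in N2 (adjusted p 0.00545, 0.00117 and 0.113). In the fusion and lysosome group 3 of 5 tested genes rose for the averaged effect, where 27.4% of all genes were called higher. Within strains 1 of these 5 was called higher in pqm-1, 3 in daf-16 and 0 in N2.

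Among regulators, the only gene lower in all strains was mxl-3. It encodes a repressor that competes with HLH-30, the worm TFEB and an activator of autophagy and lysosomal genes. The level of mxl-3 was 26.4 and 22.6 CPM in heated pqm-1 animals against 46.5 and 44.4 CPM at 20 °C, 29.8 and 24.5 against 44.0 and 48.2 CPM in daf-16, and 25.1 and 26.0 against 39.8 and 37.2 CPM in N2. It fell by 0.89, 0.76 and 0.59 on the log2 scale in pqm-1, daf-16 and N2 (edgeR adjusted p 0.000107, 0.000211 and 0.00129), with no overlap between groups. The activator gene hlh-30 stood at 82.7 and 76.4 CPM in heated pqm-1 animals against 63.0 and 64.3 CPM at 20 °C, at 91.8 and 83.8 against 67.1 and 54.5 CPM in daf-16, and at 78.7 and 89.7 against 60.8 and 59.3 CPM in N2. It rose by 0.32, 0.53 and 0.49 (adjusted p 0.0403, 0.00219 and 0.00353). The FoxA gene pha-4, also known to be needed for autophagy, rose by 0.52, 0.78 and 0.67 (adjusted p 0.0329, 0.00306 and 0.00728). The TOR kinase gene let-363 and its partner daf-15, which act against autophagy, did not pass in any strain. The gene rsks-1, which encodes the S6 kinase below TOR, rose in daf-16 (0.27, adjusted p 0.0394) and N2 (0.28, adjusted p 0.0305), and its value in pqm-1 was 0.09 (adjusted p 0.489).

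The genes most like an autophagy gene over the 12 libraries were sought for the 3 with the largest averaged heat effect, by Pearson's correlation of log2 CPM with 11506 other genes. For sqst-1 they were clp-4, a calpain gene (r 0.995), hsp-4, a chaperone gene of the endoplasmic reticulum (0.994), and tag-120 (0.992). For lgg-1 they were F13H10.6 (0.991), tli-1 (0.988) and allo-1 (0.988), and for atg-7 npl-4.2 (0.992), tba-7 (0.99) and npl-4.1 (0.99). The libraries form a heated and an unheated set, which all these genes separate, so the values describe that split. Counts of npl-4.1 and npl-4.2 were not whole in 12 of the 12 libraries, and those of F13H10.6 in 5. How such counts were assigned is not given in the sources used here, and their values are uncertain.

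Markers of several tissues also differed with heat. For the averaged effect 26.3% of all genes were called lower and 27.4% higher. Of oocyte markers, 5 of 5 were called lower for it, with 3 in pqm-1, 1 in daf-16 and 5 in N2, and their summed level was 1171 to 1314 CPM in heated pqm-1 libraries against 1694 to 1717 CPM at 20 °C, 886.2 to 1473 against 1284 to 1482 CPM in daf-16 and 1090 to 1145 against 1828 to 2224 CPM in N2. Germline markers were called lower in 4 of 5 for the averaged effect, with 3 in pqm-1, 1 in daf-16 and 3 in N2, and with sums of 1567 to 1976 CPM over the heated and 2119 to 2488 CPM over the 20 °C libraries, and sperm markers in 4 of 5. Intestinal markers, yolk protein genes among them, were called lower in 5 of 6, with sums of 12300 to 16380 CPM after heat and 19710 to 27000 CPM at 20 °C. Body wall muscle markers were called higher in 3 of 3 with a row, neuronal markers in 3 of 4 and pharyngeal markers in 1 of 3. Hypodermal markers were called lower in 2 of 4, and within strains 2 were higher and 2 lower in N2 and 0 were called in pqm-1 and daf-16. No listed marker with a row was at 0 in every library. The part of these differences in the autophagy values was not tested, and in whole animals fewer cells of a type and less RNA per cell cannot be told apart.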

How the data were processed

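RNA-seq of whole worms was deposited as 1 table with 50755 rows of RefSeq transcripts and 18 value columns. The deposited values are estimated counts (13.3% of non-zero values are not whole), with no normalization. The aligner, counter, genome build and strandedness are not given in the sources used here, so no coordinates are printed. Per the file headers 1 further column carries a sample's name, but its deposited values are transcript lengths in bases, a kind other than counts, and it was used for lengths. Accessions were matched to RefSeq WBcel235 gene names for 45910 rows (39798 genes). The other 4845 rows, with 23.4 to 24.3% of the row totals, were left out. The transcript with the highest mean stood for each gene, rounded to whole counts.

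The 12 libraries labelled replicate 2 and 3 were fitted together with TMM factors, after filterByExpr, in edgeR 4.0.16 under R 4.3.3. The spread of each gene was estimated over the 6 groups in common, with 6 residual degrees of freedom, and the test also draws on the spread of the other genes. The quasi-likelihood F-test was adjusted by Benjamini-Hochberg over 14286 genes in each of 10 comparisons. CPM are scaled by TMM, except for hsp-16.2 beside the libraries labelled replicate 1, the marker sums and the libraries labelled replicate 1, which are scaled to totals. SEs were taken from the log2 fold change and its F. The fit was also run on simulated counts, drawn with the spread that it had itself estimated. The changes put into them were larger than those of most autophagy genes here, and the outcome is not used as support. Between replicates the counts varied beyond sampling noise (chi-square per degree of freedom 5.31 to 20.3).

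The members and lists were chosen with earlier results of these data known. Genes named were the 10 members, called genes of the other lists (at most 3 per list and direction by the averaged heat effect), hsp-16.2, pqm-1, daf-16 and the 3 genes most like each of 3 members. The genes let-363, daf-15, rsks-1, atg-10, sepa-1 and epg-3 were named after their values were seen. Each result was recomputed with the replicate number as a block, only the groups compared in the fit, DESeq2 1.42.0, scaling by library size only or by relative log expression, low counts unfiltered or cut at a mean of 10, the longest transcript, unmatched rows kept, all 17 count columns by header names, and each library left out. The same alternatives for the other autophagy genes were added after the data had been seen. A planned search of promoters and proteins was not run, since no sequences were used here.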

Additional observations from a re-analysis of the deposited data

Results flagged for a closer look

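The libraries labelled 20 °C replicate 1 entered only the alternative fit by header names, and 9 of the 9 autophagy genes stood there above every 20 °C library used. These values are CPM scaled to the library total, and the share of all genes that did the same was not computed. The count is therefore not shown to be particular to autophagy genes. In the same libraries hsp-16.2 stood at 324.3 CPM (pqm-1) and 208.7 CPM (N2), against at most 0.42 CPM in the 20 °C libraries used. Their labels may therefore not give their temperature, nor their strain. If the names are displaced by 1 column, the library labelled pqm-1 is from heated N2 and the library labelled N2 from the heated daf-16 strain. The library labelled pqm-1 held 250.5 CPM of sqst-1, 383.9 of lgg-1, 59.9 of lgg-2, 53.1 of atg-7, 9.03 of atg-16.2, 101.5 of atg-18, 45.96 of atg-9, 29.97 of bec-1 and 47.5 of unc-51. The library labelled N2 had 190.6 CPM of sqst-1, 264.1 of lgg-1, 44.3 of lgg-2, 50.6 of atg-7, 12.9 of atg-16.2, 95.5 of atg-18, 45.4 of atg-9, 25.8 of bec-1 and 49.3 of unc-51. The highest values among the 20 °C libraries used were 77.6 CPM for sqst-1, 198.0 for lgg-1, 41.1 for lgg-2, 34.5 for atg-7, 8.34 for atg-16.2, 84.98 for atg-18, 43.8 for atg-9, 24.9 for bec-1 and 45.6 for unc-51.

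In the libraries labelled heat replicate 1, 8 of the 9 genes in pqm-1, 8 in daf-16 and 7 in N2 stood below the lowest heated library used. The share of all genes that did so was not computed, so these counts are not shown to be particular to autophagy genes. For sqst-1 the values were 72.4, 69.0 and 65.6 CPM in pqm-1, daf-16 and N2, against a lowest heated value of 209.4 CPM. For hsp-16.2 they were 0.0391, 0.256 and 0.417 CPM, against a lowest heated value of 263.4 CPM, so these labels may not give the temperature either. Some autophagy genes lay above the highest 20 °C library used, 3 in pqm-1, 0 in daf-16 and 4 in N2, again without the share of all genes. Among them were lgg-1 in pqm-1 (219.3 CPM) and atg-7 in N2 (42.7 CPM), and atg-16.2 in N2 (10.98 CPM) was also above the lowest heated library used (10.2 CPM).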

How the results depend on the processing

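The 4 genes sqst-1, lgg-1, atg-7 and atg-16.2 kept their heat call in each strain under all 21 alternatives apart from the fit of all count columns by header names. These alternatives are not independent checks. The longest transcript of each of these genes was the row already used, and most fits without 1 library left out a library of another strain. The fit by header names takes in the libraries labelled replicate 1 and called 0 genes with edgeR in each of the 10 comparisons (159 to 1529 genes at an unadjusted p under 0.05), 0 of the autophagy genes among them, with log2 fold changes of -0.044 for unc-51, -0.050 for atg-9 and -0.051 for lgg-2 with heat in pqm-1. Over all alternatives, 837 values of single autophagy genes kept direction and call status, 42 lost the call, 9 gained it and 5 changed sign. Values that were not called and stayed so are among those kept. Of the strain comparisons and differences in heat response, only values at an unadjusted edgeR p under 0.05 entered. These counts include the fit by header names, which gave most of the lost calls. The sign changes of unc-51, atg-9 and lgg-2 with heat in pqm-1 also came from that fit, and those of bec-1 and atg-9 in N2 from leaving out 1 library. Beside those named above, unc-51 with heat in N2 (0.31) and atg-18 and lgg-2 with heat in pqm-1 (0.26 and 0.33) were called with library size only, atg-18 and lgg-2 with heat in pqm-1 (0.20 and 0.27) were called with only the groups compared, and lgg-2 with heat in N2 (0.37) was not.

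Counts over all genes also moved under other alternatives. For pqm-1 against N2 at 20 °C the count of 9 became 102 with DESeq2, 545 with no filter, 18 with only the groups compared and 16 with the replicate block. After heat the count of 35 became 88 with DESeq2 and 286 with no filter. For daf-16 against N2 the count of 360 at 20 °C became 1299 with no filter and 182 with only the groups compared, and after heat 157 became 236 with library size only, 1095 with no filter (1 autophagy gene) and 25 with only the groups compared. The differences in heat response had 0 calls, and 8 and 62 with DESeq2 and 280 and 789 with no filter for pqm-1 and daf-16. Of the other autophagy genes, 8 were called with heat in N2 with only the groups compared, and with no filter 1 was called in pqm-1 against N2 at 20 °C, 2 in daf-16 against N2 after heat, and 1 and 2 for the differences in heat response. The cause of these moves was not tested.

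Without 1 library, the counts over all genes were 3294 to 5254 with heat in N2, 2022 to 3925 in pqm-1 and 3059 to 4789 in daf-16. They were 6 to 17 and 14 to 69 for pqm-1 against N2 at 20 °C and after heat, 5 to 638 and 34 to 383 for daf-16 (0 to 1 autophagy genes after heat), and 0 to 2 and 0 to 75 for the differences in heat response. For the other autophagy genes they were 6 to 16 in N2 and 5 to 17 in pqm-1. The single-library values of bec-1 and atg-9 in N2 reached from -0.046 to 0.39 and from -0.013 to 0.30. With library size only, 61.8%, 61.0% and 52.0% of the calls with heat in N2, pqm-1 and daf-16 were higher, against 48.6%, 49.9% and 50.0%, and 21.6% against 48.4% for daf-16 against N2 after heat.

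The replicate numbers are not stated to pair the samples, and with 2 per group the correlation of their differences between groups ran from -0.243 to 0.215. With the replicate block the autophagy genes called with heat were 5 in pqm-1, 9 in daf-16 and 5 in N2, as without it. With 2 libraries per group the SEs of the strain differences were 0.08 to 0.22 on the log2 scale, which limits the differences that could be called.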
